A study of Mus musculus with 9 samples.

Results

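The miR-191 and miR-425 cluster is a pair of microRNA hairpins on mouse chromosome 9 that lie close together on the same strand and give 4 mature miRNAs, mmu-miR-191-5p, mmu-miR-191-3p, mmu-miR-425-5p and mmu-miR-425-3p. Both arms of both hairpins were taken by name, whatever their level, and the cluster was chosen by measured values of these same libraries, the level of mmu-miR-191-3p at 24 h of silica against untreated cells. These 4 are among 1101 mature miRNAs listed in at least 1 library, and all 4 were counted in each of the 9 libraries and passed the filter on low counts, which kept 453 miRNAs. The values at 24 h, and the comparison of 48 h with 24 h that uses the same 24 h libraries, are therefore given as a description with no p-value.

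The libraries hold small RNA of exosomes, vesicles shed by cells into the culture medium, which were collected by ultracentrifugation from RAW264.7, a transformed mouse macrophage cell line. The 3 groups were cells exposed to silica for 24 h, cells exposed to silica for 48 h, and untreated cells, with 3 libraries in each group, and nothing in the labels sets the libraries of a group apart but their number. All cultures were kept in medium with 10% fetal bovine serum, which carries vesicles and miRNAs of its own. Not given in the sources used here are the time in culture of the untreated cells and the dose of silica.

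A miRNA hairpin is cut by Drosha and then Dicer into a short duplex of a 5p and a 3p strand, of which one is usually kept in an Argonaute protein as the guide and the other, the passenger, is mostly degraded. The guide finds its messenger RNA targets chiefly through its seed, the short stretch near its 5′ end, so the arms of a hairpin have different targets. The hairpins of miR-191 and miR-425 share a host transcript in mammals, and miR-191-5p and miR-425-5p are often used as reference miRNAs when serum or vesicle RNA is measured by PCR.

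The mature sequences, from RefSeq on the build GRCm38.p6, are shown because everything reported here rests on telling these 4 strands apart. They are written 5′ to 3′ with the seed, bases 2 to 8, in capitals.
mmu-miR-191-5p: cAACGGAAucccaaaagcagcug
mmu-miR-191-3p: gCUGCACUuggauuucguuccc
mmu-miR-425-5p: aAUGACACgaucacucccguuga
mmu-miR-425-3p: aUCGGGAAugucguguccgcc
They are 23, 22, 23 and 21 bases long and lie on the plus strand at chr9:108568325-108568347, chr9:108568367-108568388, chr9:108568789-108568811 and chr9:108568830-108568850. The 4 seeds all differ. Among the 1679 mature names of the RefSeq table, the fewest single-base edits that turn one of them into another mature miRNA were 8 for mmu-miR-191-5p, 7 for mmu-miR-191-3p, 8 for mmu-miR-425-5p and 7 for mmu-miR-425-3p, so none has a near-identical copy there with which it could share reads. One further miRNA of that table has the seed of mmu-miR-425-5p, namely mmu-miR-489-3p at chr6:3721922-3721944 on the minus strand, shown here because a shared seed means shared candidate targets.
mmu-miR-489-3p: aAUGACACcacauauauggcagc
mmu-miR-489-3p was not listed in any library.

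The hairpins show how the arms sit, with the mature strands in capitals, the 5p arm first.
Mir191: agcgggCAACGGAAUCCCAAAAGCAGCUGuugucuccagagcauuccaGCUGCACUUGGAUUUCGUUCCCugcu
Mir425: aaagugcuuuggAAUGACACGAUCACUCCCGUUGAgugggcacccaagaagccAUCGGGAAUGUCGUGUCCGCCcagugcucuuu
Mir191 spans chr9:108568319-108568392 and Mir425 chr9:108568777-108568861, with 384 bases between them. In RefSeq both lie within the span of Dalrd3 (chr9:108567484-108572773), a protein-coding gene, whereas GENCODE M21 starts Dalrd3 further on (chr9:108569886-108572774) and places both hairpins in an exon of the long noncoding RNA 4833445I07Rik (chr9:108567533-108569174). GENCODE M21 also has a miRNA gene on the opposite strand over Mir191, Gm24083 (chr9:108568295-108568414). The strand setting of the authors' counting was not stated in the sources used here, and without it reads of Gm24083 and Mir191 cannot be told apart.

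Mature miRNAs had 2158418 to 8331451 counts a library, or 28.0% to 44.7% of the reads counted over every RNA class. Levels are given as CPM, counts-per-million of mature miRNA after TMM scaling, a step that evens out differences in composition between libraries. A count of 3 stands for 0.360 to 1.39 CPM, far under the lowest level of any strand of the cluster, and the least counted of the 4 in any library, mmu-miR-191-3p in untreated library 2, had 482 reads. All 7 myeloid markers were listed, and they summed to 64512 to 80026 CPM of mature counts at 24 h, 84782 to 110208 at 48 h and 87681 to 102640 in untreated, nearly all of it miR-146a-5p and miR-21a-5p, which other cells also make. The more specific miR-223-3p had 127 to 208 CPM at 24 h, 44.3 to 174 at 48 h and 53.9 to 178 in untreated, miR-142a-5p had 17.1 to 148 at 24 h, 43.4 to 259 at 48 h and 32.6 to 179 in untreated, miR-142a-3p had 13.0 to 53.4 at 24 h, 37.6 to 276 at 48 h and 28.0 to 218 in untreated, and miR-511-3p was at 0 in some libraries of each group. Untreated library 2 and 48 h library 2 listed the most mature miRNAs.

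The cluster was an abundant part of the exosomal miRNA. It held 2.12%, 2.78% and 2.21% of mature counts at 24 h, 1.77%, 3.18% and 1.31% at 48 h, and 1.44%, 2.59% and 1.10% in untreated. The groups overlapped, with means of 2.37 ± 0.357% at 24 h, 2.09 ± 0.971% at 48 h and 1.71 ± 0.781% in untreated (SD, n = 3 each). Nearly all of it was one strand: mmu-miR-191-5p made up 88.0% to 94.7% of the cluster's counts in each of the 9 libraries. By mean CPM over all libraries the 4 strands ranked 16 (mmu-miR-191-5p), 60 (mmu-miR-425-5p), 92 (mmu-miR-425-3p) and 98 (mmu-miR-191-3p) among the tested miRNAs, with the mature strands close enough in length that counts need no length correction. The 3p arms of both hairpins had similar means over all libraries, 332 CPM for mmu-miR-425-3p and 303 CPM for mmu-miR-191-3p, but not within each library. In untreated library 2, for example, they had 1825 and 482 counts. Which of them was higher differed between libraries.

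mmu-miR-191-5p, the guide strand of its hairpin, had 20055, 22831 and 22759 CPM at 24 h, 20235, 25549 and 11980 CPM at 48 h, and 14546, 20985 and 9666 CPM in untreated. The 3 libraries at 24 h lay close together, and 2 of them stood above every untreated library, but the groups overlapped because untreated library 2 was above 24 h library 1. The means were 21882 ± 1582 CPM at 24 h, 19255 ± 6837 CPM at 48 h and 15065 ± 5677 CPM in untreated (SD, n = 3 each). From edgeR's fit the log2 fold change was 0.54 ± 0.41 (SE) at 24 h and 0.35 ± 0.41 at 48 h against untreated, and −0.18 ± 0.40 at 48 h against 24 h, where scaling by all counted reads turned the sign (0.08), as did leaving out 48 h library 3 (0.09). Over the libraries left out the value at 24 h against untreated ran from 0.22 without untreated library 3 to 0.89 without untreated library 2. At 48 h against untreated it ran from 0.05 without untreated library 3 to 0.69 without untreated library 2, and it was 0.06 without 48 h library 2. In bulk vesicle RNA, fewer vesicles that carry a miRNA and less of it per vesicle cannot be told apart.

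mmu-miR-191-3p, the passenger strand, is the member whose 24 h values led to the choice of the cluster. It had 614, 479 and 645 CPM at 24 h, 166, 90.5 and 289 CPM at 48 h, and 154, 82.3 and 211 CPM in untreated. In CPM every library at 24 h was above every library of the other groups. The unscaled counts were 2378, 2891 and 1245 at 24 h, 573, 864 and 1255 at 48 h, and 825, 482 and 930 in untreated. Before scaling, 24 h library 3 was thus just below 48 h library 3. In RPM, reads-per-million of all counted RNA classes and thus free of the scaling by miRNA, it had 218, 200.5 and 162 RPM at 24 h, 50.1, 46.3 and 109.5 RPM at 48 h, and 54.6, 33.5 and 82.8 RPM in untreated, and the 24 h libraries again stood above all others. The means were 579.7 ± 88.4 CPM at 24 h, 182 ± 100.3 CPM at 48 h and 149 ± 64.6 CPM in untreated (SD, n = 3 each). The fitted log2 fold change at 24 h against untreated was 1.96 ± 0.61 (SE), or 3.89-fold, and at 48 h against 24 h it was −1.67 ± 0.60. Its rank among mature miRNAs was 68 to 77 at 24 h, 88 to 163 at 48 h and 101 to 163 in untreated. Between same-numbered libraries the log2 CPM at 24 h was higher than in untreated by 1.61 to 2.54 in the 3 pairs, and at 48 h by 0.11 to 0.45.

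mmu-miR-425-5p, the more abundant arm of the second hairpin, had 965, 896 and 927 CPM at 24 h, 543, 1746 and 753 CPM at 48 h, and 371, 920.2 and 883 CPM in untreated. The 24 h values lay between those of the other groups and overlapped both, and the wide spread at 48 h came from library 2. Its means were 929 ± 34.8 CPM at 24 h, 1014 ± 643 CPM at 48 h and 725 ± 307 CPM in untreated (SD, n = 3 each), with log2 fold changes of 0.36 ± 0.57 (SE) at 24 h against untreated, 0.49 ± 0.57 at 48 h against untreated, and 0.13 ± 0.57 at 48 h against 24 h. Without untreated library 1 the first of these was −0.03, without 48 h library 2 the second was −0.19, and without 48 h library 2 the last was −0.54, so no direction of mmu-miR-425-5p held over all the libraries left out. Upper-quartile scaling also turned the sign of the last (−0.10).

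mmu-miR-425-3p, its partner strand, had 373, 392 and 353 CPM at 24 h, 465, 351 and 225 CPM at 48 h, and 291, 312 and 228 CPM in untreated. In CPM the 24 h libraries were all above the untreated ones, by a small margin, while 48 h overlapped both. In RPM 24 h and untreated overlapped, with 132, 164 and 88.4 at 24 h against 103, 127 and 89.4 in untreated. The means were 373 ± 19.4 CPM at 24 h, 347 ± 120 CPM at 48 h and 277 ± 43.6 CPM in untreated (SD, n = 3 each). The log2 fold change was 0.43 ± 0.49 (SE) at 24 h and 0.33 ± 0.49 at 48 h against untreated, and −0.10 ± 0.49 at 48 h against 24 h, the last turning to 0.08 when scaled by all counted reads. Without untreated library 3 the value at 24 h was 0.23.

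**Figure D1:**
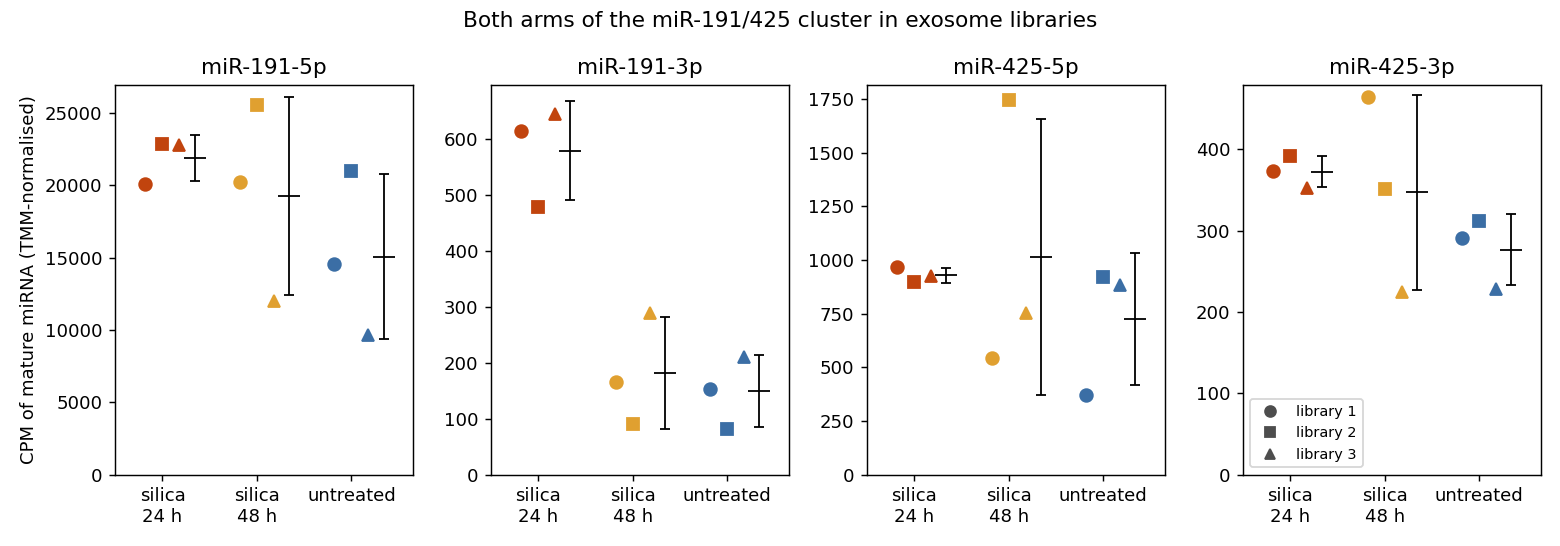
Level of each strand of the cluster in CPM of mature miRNA (TMM-normalised), with one panel per strand and its own axis from 0. Each point is a library, its shape giving the library number, and the bar beside each group is the mean ± SD of 3 libraries. miR-191-3p at 24 h (479 to 645 CPM) lies above all other libraries (82.3 to 289 CPM), while the other strands overlap between groups except miR-425-3p at 24 h against untreated.

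These differences stand beside those of all tested miRNAs. With a Benjamini-Hochberg threshold of 0.05, the quasi-likelihood test of edgeR called 0% of the 453 miRNAs in each of the 3 comparisons, and so 0 of the 4 strands. At an unadjusted p under 0.05 it found 46 miRNAs at 24 h against untreated, 4 at 48 h against untreated and 44 at 48 h against 24 h, and past an adjusted threshold DESeq2 called 4, 1 and 6 of all tested miRNAs and limma-voom 0, 0 and 0. A fit with the replicate number as a block gave 3 calls at 24 h against untreated. None of the 4 strands was called by any tool or setting tried. Of the 4 strands, 2 (mmu-miR-191-3p and mmu-miR-425-3p) had every 24 h library above every untreated one in CPM, as had 10.4% of the tested miRNAs. In RPM mmu-miR-425-3p did not. Since these values chose the cluster, nothing is read from that count. The median log2 fold change of all tested miRNAs was −0.07 at 24 h against untreated, 0.03 at 48 h against untreated and 0.14 at 48 h against 24 h.

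The 48 h libraries had no part in the choice of the cluster, but the untreated libraries they are set against did. None of the 4 strands had each 48 h library above each untreated one, where 2.21% of tested miRNAs had, and none had them all below, where 1.55% had. The adjusted p at 48 h against untreated was 0.997 for each of the 4 strands (edgeR quasi-likelihood test, Benjamini-Hochberg over 453 miRNAs). The log2 fold changes, 0.29 ± 0.58 (SE) for mmu-miR-191-3p and 0.33 to 0.49 for the other strands, were each smaller than their SE. With the replicate number as a block they were 0.36 ± 0.32 for mmu-miR-191-5p, 0.25 ± 0.45 for mmu-miR-191-3p, 0.43 ± 0.50 for mmu-miR-425-5p and 0.29 ± 0.44 for mmu-miR-425-3p (SE), at an adjusted p of 0.982 for each in edgeR. Between same-numbered libraries mmu-miR-191-5p was higher at 48 h than in untreated in 3 of 3 pairs, by 0.48, 0.28 and 0.31 in log2 CPM. So was mmu-miR-191-3p, while mmu-miR-425-5p and mmu-miR-425-3p were higher in 2 of 3. The share of all tested miRNAs higher in 3 of 3 pairs was not computed, so nothing is read from these counts. At 48 h against 24 h, 1 of the 4, mmu-miR-191-3p, had all libraries below those of 24 h, as had 10.4% of tested miRNAs. Since this comparison shares the 24 h libraries with the one that chose the cluster, it adds no independent value.

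The arms of a hairpin start as one molecule each per precursor, and their ratio within a library needs no scaling between libraries. The 3p arm made up 2.97%, 2.06% and 2.76% of the counts of the miR-191 hairpin at 24 h, 0.812%, 0.353% and 2.36% at 48 h, and 1.05%, 0.391% and 2.14% in untreated. The share was thus low everywhere, and it was more even at 24 h than in the other groups, where it varied several-fold between libraries. The 24 h group did not stand apart as a whole, because 24 h library 2 was below untreated library 3 and below 48 h library 3. Counting error was small beside these differences: the widest 95% Wilson interval of a miR-191 share was 0.302 percentage points wide, and it covers counting error only.

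In means the miR-191 3p share was 2.60 ± 0.480% at 24 h, 1.17 ± 1.05% at 48 h and 1.19 ± 0.883% in untreated (SD, n = 3 each). On the log2 scale the 3p/5p ratio at 24 h exceeded untreated by 1.44, and without untreated library 2 or 3 the value was 0.79 or 2.03. That value carries the level of mmu-miR-191-3p by which the cluster was chosen. At 48 h against untreated the difference was −0.12 (two-sided exact permutation test, p = 0.8), where 3 against 3 libraries cannot give less than 0.1. This difference has no stable sign: it was 0.54 without 48 h library 2, 0.46 without untreated library 3, −0.77 without untreated library 2 and −0.85 without 48 h library 3. The same-numbered libraries of 48 h and untreated lay close to each other, differing by −0.37, −0.15 and 0.14 in log2 3p/5p for numbers 1, 2 and 3, while those of 24 h and untreated differed by 1.54, 2.42 and 0.38. The labels do not say what the numbers stand for.

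The miR-425 hairpin was far more balanced. Its 3p arm took 27.9%, 30.4% and 27.6% at 24 h, 46.1%, 16.8% and 23.0% at 48 h, and 44.0%, 25.3% and 20.5% in untreated. The 24 h libraries lay within the range of the other groups, and library 1 had the highest share both at 48 h and in untreated. The means were 28.6 ± 1.57% at 24 h, 28.6 ± 15.5% at 48 h and 29.9 ± 12.4% in untreated (SD, n = 3 each). The difference in log2 3p/5p was −0.03 at 24 h and −0.14 at 48 h against untreated, the second at p = 0.8 in the two-sided exact permutation test. Over the libraries left out these ran from −0.36 (without untreated library 3) to 0.44 (without untreated library 1) at 24 h and from −0.74 (without 48 h library 1) to 0.33 (without untreated library 1) at 48 h, so neither has a stable sign. The widest Wilson interval of a miR-425 share was 3.52 percentage points.

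**Figure D2:**
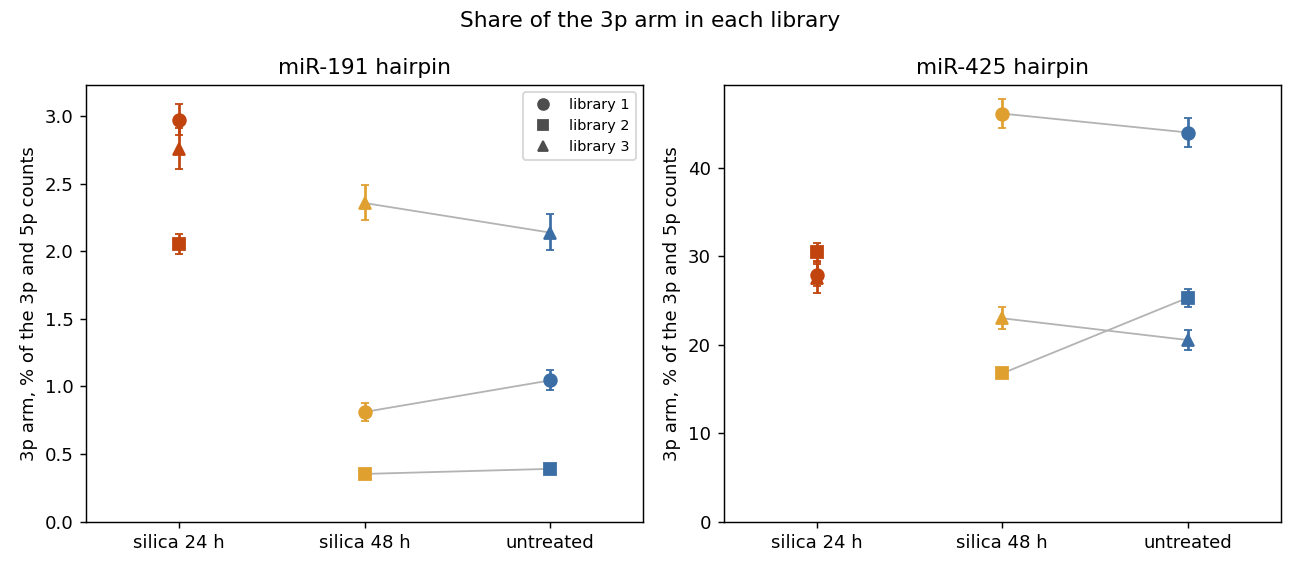
Share of the 3p arm in the counts of each hairpin, in percent, with the miR-191 hairpin in one panel and the miR-425 hairpin in the other, each axis starting at 0. Points are libraries with 95% Wilson intervals (counting error only), and gray lines join libraries of the same number at 48 h and in untreated. The miR-191 share is 2.06% to 2.97% at 24 h and reaches down to 0.353% and 0.391% in the other groups, and the miR-425 share at 24 h lies within the range of the others.

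The hairpins were also set against each other arm by arm. mmu-miR-191-5p had 10.9 to 39.2 times the counts of mmu-miR-425-5p, and the log2 ratio of miR-425-5p to miR-191-5p differed from untreated by −0.14 at 24 h and by 0.06 at 48 h (two-sided exact permutation p = 0.9 at 48 h). For the 3p arms, mmu-miR-425-3p made up 37.8%, 45.0% and 35.4% of the counts of both at 24 h, 73.7%, 79.5% and 43.7% at 48 h, and 65.4%, 79.1% and 51.9% in untreated. All 24 h libraries were below all untreated ones, so that mmu-miR-191-3p was the more counted 3p arm in 3 of 3 libraries at 24 h, in 1 of 3 at 48 h (library 3) and in 0 of 3 in untreated. The log2 ratio differed from untreated by −1.61 at 24 h, a difference that carries the value of mmu-miR-191-3p by which the cluster was chosen, and by 0.04 at 48 h (two-sided exact permutation p = 0.9). Adjusted over the 4 ratios tested at 48 h against untreated, the exact permutation p was 0.9 for each.

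Other hairpins put these ratios in scale. They were the 104 hairpins with both arms tested under the same name. Arms with unlike names were not paired and are in none of these counts and places. An example is miR-219a-5p and miR-219a-1-3p, with log2 fold changes of −6.39 and 0.29 at 24 h against untreated. Over the 104, the 3p/5p ratio at 24 h against untreated was higher for 56 and lower for 48. The median difference was 0.23 and the median size 1.00 on the log2 scale. The miR-191 value of 1.44 was place 22 from the top and the miR-425 value of −0.03 was place 58. Since the miR-191 value carries the level of mmu-miR-191-3p by which the cluster was chosen, nothing is read from its place. The groups stood apart upward for 11 hairpins (10.6%) and downward for 9, and the hairpins of the cluster were in neither count. The less abundant arm was higher at 24 h for 43 of 104 hairpins, with a median log2 fold change of −0.30, and the more abundant arm for 46, with a median of −0.09. Among the 104, the largest differences in favour of the 3p arm were 4.27 for miR-1839, 3.91 for miR-339 and 3.54 for miR-328. In favour of the 5p arm they were those of miR-532, whose 3p arm had 0 counts in every 24 h library so that no size is given, miR-130b with −2.61 and miR-361 with −2.56. The values of miR-1839 and miR-361 also rest on the 0.5 counts added to each arm, since the 3p arm had 0 counts in 2 untreated libraries for miR-1839 and in 2 libraries at 24 h for miR-361, which no strand of the cluster had. At 48 h against untreated miR-191 was place 70 of 104.

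**Figure D3:**
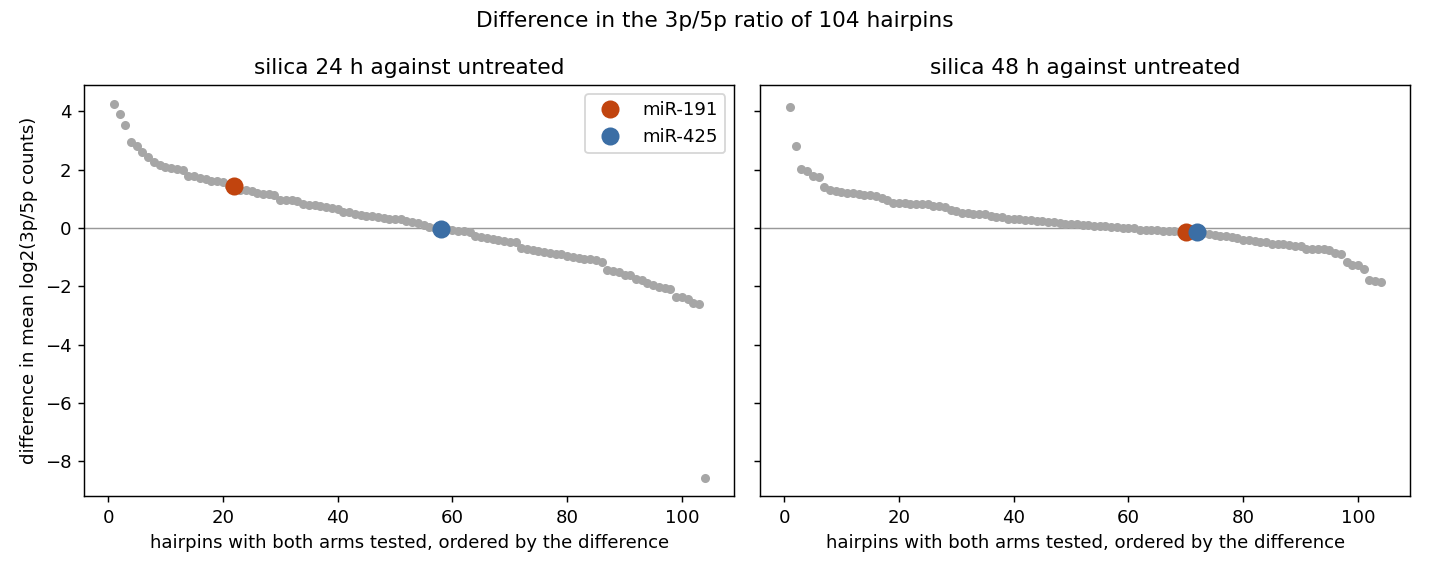
Difference in the mean log2(3p/5p counts) of each of 104 hairpins with both arms tested under the same name. Points are ordered from highest to lowest, for 24 h against untreated and for 48 h against untreated on a shared axis. miR-191 is place 22 at 24 h with 1.44 and place 70 at 48 h with −0.12, and miR-425 lies near 0 in both. The miR-191 value at 24 h carries the level of miR-191-3p by which the cluster was chosen. The lowest point at 24 h is miR-532, whose place on the axis is set by the 0.5 counts added.

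The spread of the cluster between libraries was smallest at 24 h. For all 4 strands the SD of log2 CPM within a group was lowest at 24 h, at 0.11 for mmu-miR-191-5p, 0.23 for mmu-miR-191-3p, 0.05 for mmu-miR-425-5p and 0.08 for mmu-miR-425-3p. Of all tested miRNAs, 47.7% had their lowest SD at 24 h, and the median SD of all was 0.67 at 24 h, 0.88 at 48 h and 0.97 in untreated. The CV of mmu-miR-425-5p, for example, was 3.74% at 24 h, 63.3% at 48 h and 42.4% in untreated.

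Because the 5p arms serve as reference miRNAs elsewhere, their steadiness over all 9 libraries was set beside that of other miRNAs. The SD of log2 CPM was 0.48 for mmu-miR-191-5p, place 46 of 453 from the steadiest, and 0.61 for mmu-miR-425-5p, place 84. mmu-miR-425-3p, which is not usually used in this way, was steadier, with 0.35 and place 9, and mmu-miR-191-3p was not, with 1.12 and place 238. The median SD was 1.06 over all tested miRNAs and 0.64 over the 100 most abundant, among which the 4 strands held places 27 (mmu-miR-191-5p), 45 (mmu-miR-425-5p), 7 (mmu-miR-425-3p) and 78 (mmu-miR-191-3p). Of a list of 20 candidate reference miRNAs written from general knowledge, which holds both 5p arms, all were tested and their median SD was 0.68. Its steadiest member was miR-26a-5p with 0.24, place 1, and its least steady miR-152-3p with 1.72, place 403. None of the 20 was called by edgeR. At 24 h against untreated 10 were higher and 10 lower, with a median log2 fold change of −0.04, and at 48 h against untreated 14 were higher and 6 lower, with a median of 0.18.

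**Figure D4:**
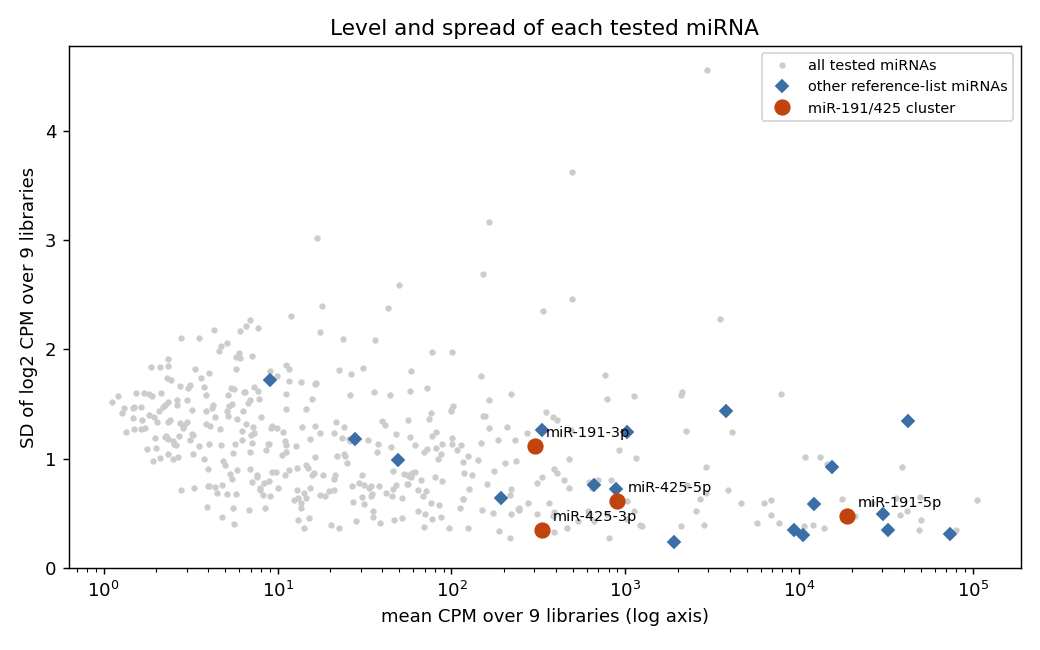
Mean CPM over 9 libraries (log axis) against the SD of log2 CPM over the same libraries for the 453 tested miRNAs, with the cluster and the other candidate reference miRNAs marked. miR-425-3p (0.35) and miR-191-5p (0.48) lie among the steadier miRNAs, miR-425-5p (0.61) is near the median of the 100 most abundant (0.64), and miR-191-3p (1.12) is near the median of all (1.06).

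The strands of the cluster did not vary as one unit. Across the 9 libraries the log2 CPM of mmu-miR-191-5p and mmu-miR-425-3p, from different hairpins, had a Pearson r of 0.83, whereas the arms of one hairpin had an r of 0.02 for miR-191 and 0.06 for miR-425. The 5p arms had an r of 0.41 and the 3p arms one of 0.13. Without untreated library 2 and 48 h library 2 the 7 libraries left gave 0.90 for mmu-miR-191-5p with mmu-miR-425-3p, 0.56 for the arms of miR-191, −0.02 for those of miR-425, and 0.80 for mmu-miR-191-3p with mmu-miR-425-5p, which had −0.02 over all 9. These are descriptions over libraries that share their groups, and the last pair and the arms of miR-191 depend most on those libraries.

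The miRNAs outside the cluster whose log2 CPM followed that of mmu-miR-191-3p most closely over the 9 libraries were miR-149-5p (r = 0.97), miR-3470a (0.92), miR-122-5p (0.91), let-7d-3p (0.88) and miR-222-3p (0.87). Since mmu-miR-191-3p varied mostly by its level at 24 h, miRNAs picked for following it are high at 24 h by that choice, and their log2 fold changes against untreated, 0.63 (miR-222-3p) to 2.82 (let-7d-3p), say nothing further. For mmu-miR-191-5p they were miR-351-5p (0.94), miR-199a-5p (0.91), miR-223-3p (0.90), miR-23a-3p (0.89) and miR-744-3p (0.87), and 4 of these, miR-744-3p (0.89), miR-351-5p (0.84), miR-223-3p (0.81) and miR-23a-3p (0.71), were also the closest to mmu-miR-425-3p, with miR-503-3p (0.71). For mmu-miR-425-5p they were miR-324-5p (0.95), miR-3473b (0.84), miR-369-3p (0.83), miR-421-3p (0.81) and miR-93-3p (0.79).

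The sum of the markers of liver and red cells, which serum carries, was higher at 24 h, as was mmu-miR-191-3p. The 4 markers written down, all of them listed, summed to 2408 to 5045 CPM of mature counts, without TMM scaling, at 24 h, 1371 to 1485 at 48 h and 471 to 1854 in untreated, so the 24 h libraries were above all others. Most of this was miR-122-5p, by far the most abundant miRNA of hepatocytes, with 1415 to 2017 CPM at 24 h, 466 to 1076 at 48 h and 296 to 1292 in untreated, and miR-451a, abundant in red cells, with 985 to 3021 at 24 h, 405 to 901 at 48 h and 172 to 592 in untreated. Of the other two, miR-486a-5p overlapped between groups, with 4.99 to 6.49 CPM at 24 h, 2.05 to 3.83 at 48 h and 3.17 to 9.45 in untreated, and miR-144-3p was at most 1.83 CPM. The part of this RNA in the level of mmu-miR-191-3p was not tested. For scale, 10.4% of all tested miRNAs had every 24 h library above every untreated one in TMM-scaled CPM. The share above both other groups was not computed. Of the mesenchymal and endothelial markers, miR-143-3p, which marks smooth muscle and fibroblasts, also had its 24 h libraries above all others, with 49.6 to 86.6 CPM at 24 h, 18.9 to 41.0 at 48 h and 7.34 to 23.1 in untreated, and its part was not tested either. The others of that list did not. Against untreated, miR-126a-3p had 395 to 898 CPM at 24 h and 419 to 678 in untreated, and miR-199a-3p 53.7 to 578 and 9.10 to 1522. miR-145a-5p was at most 2.74 CPM and overlapped between 24 h and 48 h. That list summed to 537 to 1528 CPM at 24 h, 426 to 1150 at 48 h and 458 to 2215 in untreated, the epithelial ones to 40.8 to 74.0 at 24 h, 79.3 to 139 at 48 h and 72.7 to 118 in untreated, and those of muscle and neuron to 79.1 to 209 at 24 h, 83.7 to 112 at 48 h and 81.7 to 180.3 in untreated.

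The deposited tables also count reads under Rfam's names for the precursor families, a class apart from the mature miRNAs. The mir-425 family had 144, 108 and 8 counts at 24 h, 53, 113 and 83 at 48 h, and 86, 54 and 56 in untreated, which is 1.04 to 13.2 RPM at 24 h, 4.63 to 7.24 RPM at 48 h and 3.76 to 5.69 RPM in untreated. These groups overlapped. The mir-191 family had 1 count in untreated library 1 and none in the other 8 libraries, although its mature strands were counted far more often than those of mir-425. How such reads differ from mature ones was not stated in the sources used here.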

How the data were processed

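Each library has its own deposited table, in which the authors give, per the file headers, a read count per small RNA and a second value, which equals that count scaled to RPM over the library's total (matched within 0.005). Trim Galore, Bowtie, HTSeq and the build mm10 are named, without versions, in the submitters' processing notes, and for reads matching several places the handling was one step not given in the sources used here. Unlisted miRNAs were set to 0 counts.

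The members, lists and rule for named miRNAs were chosen with earlier results of these data known. The text names the 4 members, the 5 miRNAs most like each in log2 CPM (prior count 2), those with a member's seed, the steadiest and least steady of the reference list, the 3 hairpins at each end of the 3p/5p order, and marker miRNAs. The markers given singly were picked out after their values were seen, and miR-142 and miR-28-3p of the lists were matched as miR-142a and miR-28a-3p.

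Counts of mature miRNAs were filtered with filterByExpr (minimum count 10), leaving 453 that hold at least 99.96% of mature counts, scaled by TMM (factors 0.829 to 1.16) and tested in edgeR 4.0.16 (R 4.3.3) by the quasi-likelihood test over all 9 libraries without a block, with Benjamini-Hochberg adjustment at 0.05. The common dispersion had a square root of 0.756, and log2 fold changes had a median SE of 0.825 against untreated at 24 h, 0.823 at 48 h, and 0.825 between the silica groups. Ratios of counts had 0.5 counts added to each strand and 48 h was compared with untreated by exact two-sided permutation tests (scipy 1.17.1). DESeq2 1.42.0 and limma 3.58.1 were alternatives, with other scalings, filters, library sets and the replicate block. The edgeR fit was tested on simulated counts, but the recovery it had to reach was set at a spread far lower than that of these libraries. Passing it does not show which changes could be found at the spread seen here. The p-values measure the spread between libraries, which the series' text calls independent.

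The libraries' numbers come from their titles. Deviations from the group means of same-numbered libraries correlated, for numbers 1, 2 and 3, with r of 0.14, 0.44 and 0.15 between 24 h and untreated, 0.15, 0.64 and 0.31 between 48 h and untreated, and −0.07, 0.29 and 0.25 between 48 h and 24 h. Values of r between differently numbered libraries were not set beside them, so they cannot show whether the numbers pair the libraries. The tests reported have no block, and values with it are given as such.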

Additional observations from a re-analysis of the deposited data

How the results depend on the processing

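The count of miRNAs called by edgeR was 0 in each comparison and changed with the setting. At 24 h against untreated it was 1 with upper-quartile factors, 7 with no filter on low counts, 4 with DESeq2, 1 with the 2 groups alone, and 0 to 1 when a library was left out, with 1 call each without 48 h library 1 and without 48 h library 2. At 48 h against untreated it was 1 with no filter and 1 with DESeq2, and 0 with any library left out. At 48 h against 24 h it was 16 with no filter, 6 with DESeq2, and 0 to 1 with a library left out, with 1 call without 48 h library 1. With the replicate block it was 3 at 24 h against untreated and 3 at 48 h against 24 h, and it changed no call at 48 h against untreated. None of these calls was a strand of the cluster, and the cause was not tested.

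Under the 20 alternatives the log2 fold change of miR-191-3p at 24 h against untreated stayed between 1.68 and 2.22, and 2.08 with the replicate block. At 48 h against untreated the direction of miR-191-3p turned to −0.32 without 48 h library 3 (−0.32 to 0.60 over the libraries left out). That of miR-425-5p turned to −0.19 without 48 h library 2 (−0.19 to 0.85). At 24 h against untreated miR-425-5p turned to −0.03 without untreated library 1. At 48 h against 24 h the directions of miR-191-5p, miR-425-5p and miR-425-3p turned. The values were 0.09 and 0.11 without 48 h library 3 for miR-191-5p and miR-425-3p, and −0.54 without 48 h library 2 for miR-425-5p. The cause was not tested. Scaling by all counted reads moved the median of all tested miRNAs to −0.21, 0.14 and 0.36 in the 3 comparisons, and of the 4 scalings tried none turned a member's direction at 24 h or 48 h against untreated. Leaving out untreated library 2 and 48 h library 2 together was chosen after the data were seen. The smallest fold change that 3 libraries a group could detect was not computed.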
